A study of Mus musculus with 4 samples.

Results

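The replication-dependent histone genes were the 67 protein-coding genes of the GENCODE M1 annotation (mouse build mm9) whose symbols begin with Hist1, Hist2, Hist3 or Hist4, out of 22367 protein-coding genes in all. They were examined for Runx3 occupancy in splenic CD4+ dendritic cells (DC). Of the 15121 Runx3-bound regions (peaks) deposited, 23 had their centre within 5 kb of an annotated transcription start site (TSS) of these genes. The peaks came from ChIP-seq, which sequences the DNA fragments that an antibody pulls down with a crosslinked protein. The 4 samples formed 2 groups of 2. The first held chromatin immunoprecipitated with an in-house polyclonal anti-Runx3 antibody (Runx3 IP), and the second held whole cell extract as the control. All were made from freshly sorted CD11chiMHCII+CD4+ cells pooled from about 15 mice, fixed in 1% formaldehyde and sheared to about 300 bp. The labels give the strain as C57BL/6 for 3 samples and as C57BL/7 for the second control.

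One list of peaks was deposited for the pooled samples, so the values below carry no replicate error, and the depth of each sample was not analysed here. A gene without a peak is one at which none was called at this depth. Each peak has a score from the peak caller whose unit is not stated. It is used here to order peaks, and its median over the whole list was 12.1. The labelled cell type was checked against known loci. Peaks lay within 1 kb of the TSS of Itgax (CD11c), Flt3 and Runx3 itself, while none was called within 5 kb of the DC gene Zbtb46, of Cd4, or of the lymphocyte genes Cd3e and Pax5.

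Replication-dependent histone genes make the core histones H2A, H2B, H3 and H4 and the linker histone H1, which package DNA as it is copied. Their mRNAs mostly end in a conserved stem-loop instead of a poly(A) tail, and the stem-loop is bound by SLBP. The genes sit close together, often in H2A and H2B pairs that share a promoter, and each class has promoter elements of its own. Their output is high in dividing cells and low in resting ones. RUNX proteins bind the hexamer TGTGGT, read on either strand.

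The members were 6 H1, 19 H2A, 18 H2B, 11 H3 and 13 H4 genes. Hist1 on chromosome 13 held 55 of them, Hist2 on chromosome 3 held 9, Hist3 on chromosome 11 held 2 and Hist4 on chromosome 6 held 1. The stem-loop was searched for in the 200 bases after each annotated stop codon, as a perfect stem of 6 base pairs that begins with GG around a loop of 4 bases that begins with T. It was found in 63 of the 67 members and in 117 of all 22367 protein-coding genes (0.523%). Hist1h2an, Hist1h2al, Hist2h2be and Hist2h2bb lacked it. Examples follow from mm9, 5′ to 3′ on the coding strand, with both arms of the stem in capitals. They are the stem-loops of Hist1h4c (chr13:23789958-23789973, minus strand), Hist2h4 (chr3:96066862-96066877, minus strand) and Hist1h2be (chr13:23677400-23677415, minus strand).
Hist1h4c: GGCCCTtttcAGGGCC
Hist2h4: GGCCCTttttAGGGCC
Hist1h2be: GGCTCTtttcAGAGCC

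A peak centre lay within 5 kb of 38 of the 67 histone genes (56.7%), against 31.1% of all protein-coding genes. Histone genes lie close together, and 14 of the 23 peaks had more than 1 histone gene in reach, with up to 5. Among the 4278 protein-coding genes with another protein-coding start within 5 kb, 50.7% had a peak in reach. When each peak was given only to the nearest protein-coding TSS, 18 histone genes (26.9%) kept a peak, against 26.7% of all genes. Within 1 kb, 23 histone genes (34.3%) had a peak, against 24.9% of all genes and 41.0% of genes with a close neighbour. The share of histone genes with a peak was thus above that of all genes by distance, but near it once each peak was counted for 1 gene. Of the 67 members, 23 had a peak within 1 kb, 15 had one only between 1 and 5 kb, and 29 had none.

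Most of the peaks scored below the median of the list. Their median score was 9.84 (range 2.41 to 43.9), against 12.4 for the 7617 peaks within 5 kb of any protein-coding TSS. Of the 23, 9 reached the median of the whole list and 2 its upper quartile (23.2). Accordingly, 17 members (25.4%) had a peak of at least the median score within 5 kb, against 17.9% of all genes, and 4 members (5.97%) had one of the upper quartile, against 9.24%. The peaks had a median width of 362 bp, against 420 bp for all peaks near a protein-coding TSS. Most were centred near a start, though not all on promoters. Of the 23, 18 (78.3%) lay within 1 kb of the nearest histone gene TSS, against 72.0% for all peaks near a protein-coding TSS. Within the 200 bp upstream of it lay 10 (43.5%), against 30.4%, and 8 of the 23 were centred downstream of it. In total, 11 peaks covered a member's TSS, and in none did coding bases make up more than 50% of the peak.

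**Figure D1:**
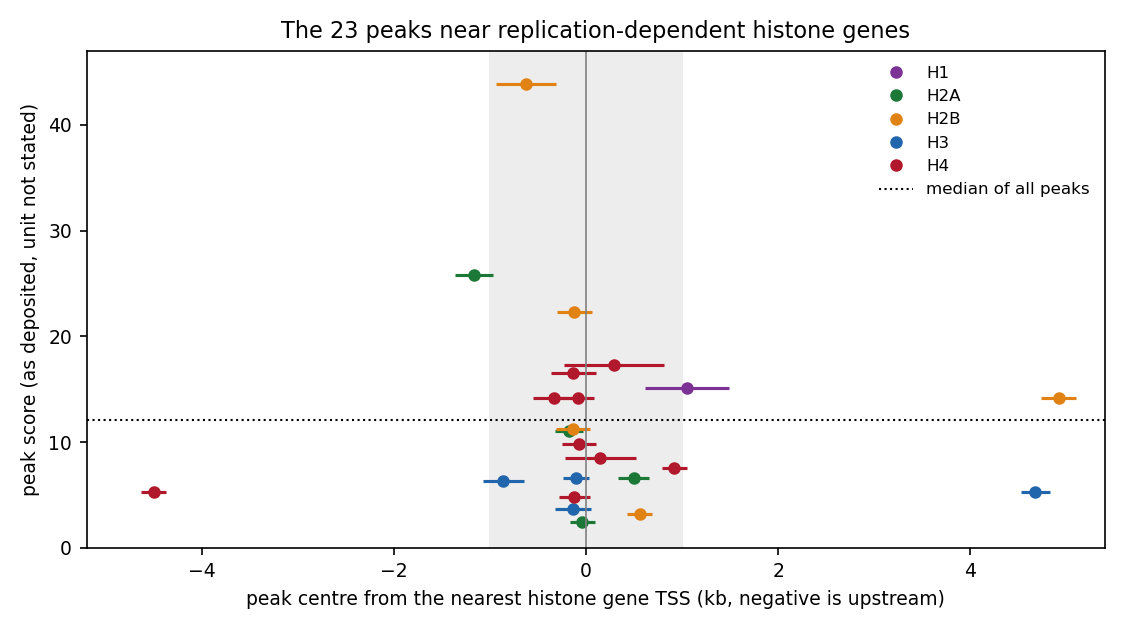
Score of the 23 peaks (vertical axis, as deposited, unit not stated) against the distance of the peak centre from the nearest histone gene TSS (horizontal axis, kb, negative upstream), coloured by the class of that gene, with bars for peak width, shading for 1 kb and a dotted line at the median of all peaks. Of the 23 peaks, 18 sit in the shaded area, and 9 reach the dotted line.

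H4 genes, which encode the histone that pairs with H3 in the nucleosome core, had peaks closest to their starts. Of the 13 H4 genes, 7 had a peak within 1 kb (53.8%), against 24.9% of all genes and 41.0% of genes with a close neighbour. All 7 peak centres lay within 335 bp of the TSS. The other 6 had none within 5 kb, and their nearest peaks were 8167 to 40898 bp away. Within 5 kb the H4 share thus stayed at 53.8%, near the 50.7% of genes with a close neighbour and below H3 (63.6%) and H2B (66.7%). H4 was the only class in which no gene's nearest peak fell between 1 and 5 kb. Of the 18 peaks within 1 kb of a member, 8 were nearest to an H4 gene, including a further peak of Hist1h4c 919 bp downstream of its start.

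In the main Hist1 cluster, Hist1h4h had the highest scoring H4 peak (chr13:23622695-23623728, score 17.3), which was 1034 bp wide, the widest of the 23, and centred 292 bp into the gene. The peak of Hist1h4k (chr13:21842275-21842741) scored 16.5 and was centred 134 bp upstream of the TSS. Hist1h4c (chr13:23790245-23790571) and Hist2h4 (chr3:96067348-96067790) each had a peak of score 14.2, centred 85 and 335 bp upstream. These 4 were above the median of the list. The other 3 were below it: Hist1h4j (chr13:21826650-21827011, score 9.84, 73 bp upstream), Hist1h4i (chr13:22132707-22133442, score 8.49, 147 bp into the gene) and Hist1h4d (chr13:23673187-23673504, score 4.79, 122 bp upstream).

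The H4 promoters are shown because most of them share an element. The hexamer GGTCCG, the centre of the H4-specific promoter element that the factor HINFP is known to bind, was added to the motifs after the H4 promoters had been read. It occurred in the 250 bases upstream of the TSS, on either strand, in 11 of 13 H4 genes (84.6%), in 1 of 18 H2B genes, 1 of 11 H3 genes and no H1 or H2A gene. Among all protein-coding genes the share was 7.79%. All 7 H4 genes with a peak held it, as did 4 of the 6 without one (Hist1h4f, Hist1h4m, Hist1h4n and Hist4h4), so its presence did not separate the groups. Hist1h4a and Hist1h4b held none. In 6 of the 7 bound H4 genes the hexamer lay inside the peak, and in 4 of them, Hist1h4c, Hist1h4d, Hist1h4k and Hist1h4j, it lay 37, 47, 56 and 57 bp from the peak centre. At Hist2h4 the hexamer lay outside the peak, 269 bp from its centre. The hexamer lay 11 to 84 bases upstream of the H4 starts, where a peak near a start covers it by position. Its place in the peaks is therefore only a description. Of the 18 peaks within 1 kb of any member, 9 (50.0%) held GGTCCG, against 22.1% of all peaks within 1 kb of a protein-coding TSS. Of these 9, 6 were nearest to an H4 gene. As the hexamer was picked from the H4 promoters themselves, a higher share was set by that choice and is not a separate result.

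The mm9 sequence is given 5′ to 3′ on the coding strand from 60 bases before the hexamer to at most 20 after it, ending before the annotated TSS, with GGTCCG in capitals. The first 7 genes had a peak within 1 kb, and the last 3 had none. In the same order, the positions are chr13:23622848-23622918 (plus strand), chr13:21842429-21842514 (minus), chr13:23790348-23790433 (minus), chr3:96067277-96067362 (minus), chr13:21826825-21826902 (plus), chr13:22133252-22133337 (minus), chr13:23673330-23673415 (plus), chr13:23643558-23643643 (minus), chr13:21903508-21903593 (plus) and chr6:136752959-136753044 (minus).
Hist1h4h: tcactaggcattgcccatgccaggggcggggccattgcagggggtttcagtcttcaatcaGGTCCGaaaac
Hist1h4k: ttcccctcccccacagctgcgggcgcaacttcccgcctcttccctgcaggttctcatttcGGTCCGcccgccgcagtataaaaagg
Hist1h4c: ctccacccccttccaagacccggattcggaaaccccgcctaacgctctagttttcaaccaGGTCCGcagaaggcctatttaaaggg
Hist2h4: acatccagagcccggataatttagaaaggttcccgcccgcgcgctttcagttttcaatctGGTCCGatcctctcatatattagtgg
Hist1h4j: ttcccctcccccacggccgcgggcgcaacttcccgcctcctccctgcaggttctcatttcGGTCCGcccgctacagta
Hist1h4i: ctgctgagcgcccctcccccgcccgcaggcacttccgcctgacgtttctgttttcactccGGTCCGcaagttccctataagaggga
Hist1h4d: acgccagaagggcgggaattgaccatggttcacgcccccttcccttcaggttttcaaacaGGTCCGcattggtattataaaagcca
Hist1h4f: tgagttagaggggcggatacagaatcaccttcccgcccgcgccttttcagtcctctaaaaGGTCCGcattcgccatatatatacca
Hist1h4m: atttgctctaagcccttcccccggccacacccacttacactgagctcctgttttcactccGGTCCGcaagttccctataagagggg
Hist4h4: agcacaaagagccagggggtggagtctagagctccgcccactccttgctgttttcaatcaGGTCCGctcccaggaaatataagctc

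The RUNX hexamer TGTGGT was then counted in the peaks. Of the 8 peaks within 1 kb that were nearest to an H4 gene, 2 held it anywhere (Wilson 95% interval of the share 7.15 to 59.1%), against 33.6% of all peaks within 1 kb of a protein-coding TSS. Within the 200 bases around the centre, 0 of the 8 held it, against 21.1%. No interval was computed for this share, and 8 peaks are too few to set it apart from 21.1%. Over all 23 histone gene peaks, 9 (39.1%, Wilson 95% interval 22.2 to 59.2%) held TGTGGT, against 41.9% of all peaks within 5 kb of a protein-coding TSS and 54.0% of the whole list. Within the central 200 bases the shares were 26.1% and 29.7% for histone gene peaks and all peaks near a protein-coding TSS. The intervals cover counting error only, and a match is a run of letters, not a measured site. In the upstream 250 bases, 5 of 67 members held the hexamer (7.46%), against 12.8% of all genes.

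**Figure D2:**
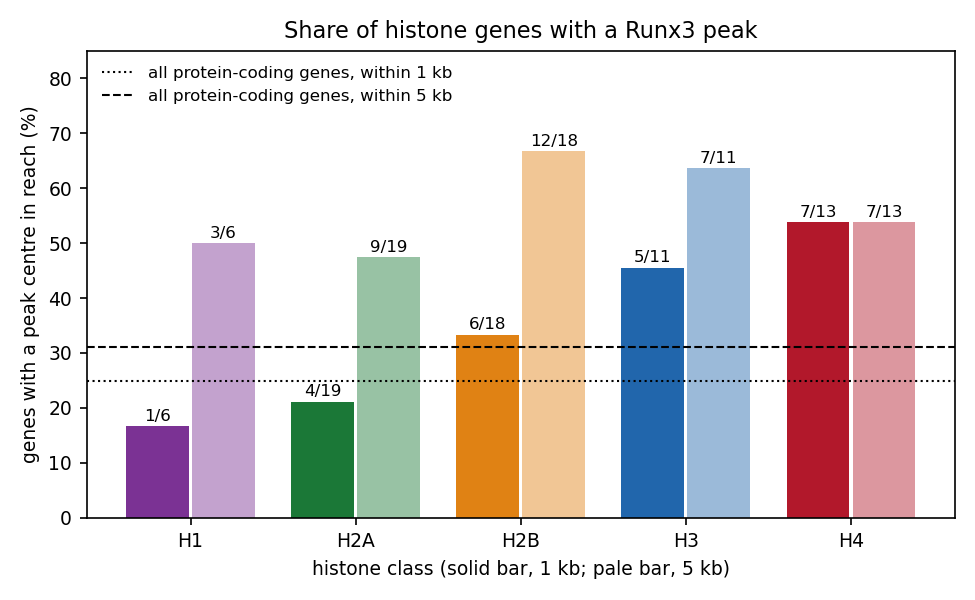
Share of genes (vertical axis, %) of each histone class (horizontal axis) with a peak centre within 1 kb (solid bars) and 5 kb (pale bars) of a TSS, with counts above the bars and lines for all protein-coding genes (24.9% and 31.1%). For H4 both bars stand at 7 of 13, while for H1 and H2A the count rises from 1 to 3 of 6 and from 4 to 9 of 19.

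H3 genes encode the partner of H4. Of 11 H3 genes, 5 had a peak within 1 kb (45.5%) and 7 within 5 kb (63.6%). The shares were 24.9% and 31.1% of all genes, and 41.0% and 50.7% of genes with a close neighbour. Only 3 H3 genes were the nearest member of a peak within 1 kb. Among the peaks within 1 kb of an H3 gene, the strongest was shared by Hist1h3f and Hist1h2bh (chr13:23635167-23635534, score 22.3). This peak lay in the 692 bp between the starts of both genes, 122 bp upstream of Hist1h2bh and 571 bp upstream of Hist1h3f. The centre of the weakest, at Hist1h3h (chr13:21809177-21809549, score 3.69), was 134 bp upstream of the start. At Hist1h3e the peak (chr13:23654888-23655313, score 6.34) was centred 862 bp upstream. Hist2h3b had a peak of score 11.2 centred 926 bp downstream, which covered the start of its neighbour Hist2h2bb 141 bp beyond the centre.

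At Hist1h3d the peak (chr13:23667389-23667665, score 6.57) was centred 105 bp upstream of the start and had 5 histone genes in reach, the most of any peak. It held TGTGGT 31 bp from its centre and was the only peak centred within 200 bp upstream of a member that had the hexamer in its central 200 bases. The 100 bases at its centre (chr13:23667477-23667576, plus strand) are shown with TGTGGT in capitals.
Hist1h3d: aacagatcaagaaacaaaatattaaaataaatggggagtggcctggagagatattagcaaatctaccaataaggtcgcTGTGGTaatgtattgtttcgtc

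The strongest histone gene peak was chr13:23713306-23713927, with a score of 43.9 that exceeded 90.8% of the list. It lay at the end of Hist1h1e, which encodes a linker histone, centred 755 bp downstream of that gene's start, and 218 of its 622 bases were coding bases of Hist1h1e. Its centre was 623 bp upstream of the far annotated start of the H2B gene Hist1h2be, whose start codon is 35168 bases from that start in the annotation. So this peak was within 1 kb of 2 members but at the start of neither H1 nor H2B coding sequence. It held TGTGGT at 2 places, and the nearer was 12 bp from the centre. The stretch from 50 bases before the centre to the end of Hist1h1e (chr13:23713566-23713623, plus strand) is shown, with the hexamer, here as its reverse complement, in capitals.
Hist1h2be: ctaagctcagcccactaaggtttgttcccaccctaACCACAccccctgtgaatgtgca

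Among the other linker histone genes, Hist1h1c had a peak of score 15.1 (chr13:23831290-23832159) centred 1048 bp downstream of its start. It was the first member outside the 1 kb limit, as Hist2h3b at 926 bp was the last inside. Hist1h1t, the testis-specific H1, had a peak of score 7.53 (chr13:23789272-23789537) 1724 bp downstream of its start, and the promoter peak of the neighbouring Hist1h4c was also within 5 kb of it. No peak was called within 5 kb of Hist1h1a, Hist1h1b or Hist1h1d. Their nearest peaks were 23813, 26679 and 8199 bp away. The H1 box AAACACA, an element of H1 promoters, occurred upstream of 5 of the 6 H1 genes and of 5.67% of all genes, so it was present with and without a peak.

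H2A and H2B form the outer pairs of the nucleosome core. Within 1 kb, 4 of 19 H2A genes (21.1%) and 6 of 18 H2B genes (33.3%) had a peak, against 24.9% of all genes. Within 5 kb, 9 (47.4%) and 12 (66.7%) had one, against 31.1% of all genes. Among genes with a close neighbour the shares were 41.0% within 1 kb and 50.7% within 5 kb. The H2A and H2B genes lay mostly in head-to-head pairs. In 12 pairs of an H2A and an H2B gene the starts were 167 to 305 bp apart (median 228 bp). A peak was centred between the starts in 1 of the 12. That was Hist1h2ak and Hist1h2bn (chr13:21845689-21845941). Its peak score of 2.41 was the lowest of the 23 and above only 0.549% of the list. Head-to-head pairs of other genes are not counted here, so whether 1 of 12 is few cannot be judged. In the pairs Hist1h2bq and Hist1h2ao, and Hist1h2ap and Hist1h2br, no 50-base word upstream of either start was unique in the genome. CCAAT, bound by NF-Y, was present between the starts of all 12 pairs, TTTGCAT, the core of the octamer that POU2F1 binds, in 5, and TGTGGT in 1. The central 120 bases of the bound pair (chr13:21845824-21845943, plus strand) are shown with CCAAT, or its reverse complement, in capitals.
Hist1h2ak and Hist1h2bn: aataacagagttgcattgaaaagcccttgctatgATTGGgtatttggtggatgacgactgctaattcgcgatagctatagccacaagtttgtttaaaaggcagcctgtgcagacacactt

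Other H2A and H2B genes had peaks that did not lie between the starts of a pair. Hist1h2ai, with its pair partner Hist1h2bl, had a peak of score 6.57 (chr13:21808611-21808939) centred 494 bp downstream of the Hist1h2ai start, which held 2 TGTGGT hexamers. Hist2h2be had one of score 3.17 (chr3:96025474-96025726) 556 bp downstream of its start, in an exon beyond the coding bases, and its partner Hist2h2ac was 797 bp from the same peak. Of the genes in no head-to-head pair, Hist2h2bb had a peak over its start (chr3:96073326-96073680, score 11.2). Hist3h2a, also in no pair, had a peak 179 bp upstream of its start (chr11:58767862-58768155, score 11.0), which lay on the pseudogene Hist3h2bb-ps, and a stronger one 1169 bp upstream (chr11:58766819-58767218, score 25.8). The latter was the second strongest of the 23 and was also within 5 kb of Hist3h2ba, 4605 bp from its start.

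The last member inside the 5 kb limit was Hist1h2bc, an H2B gene annotated with a long intron, at 4920 bp. Its pair partner Hist1h2ac was the first outside, at 5171 bp from the same peak. That peak (chr13:23780806-23781170, score 14.2) lay in an intron of Hist1h2bc and held TGTGGT 5 bp from its centre. It is shown as the central 100 bases (chr13:23780938-23781037, plus strand), with the hexamer in capitals.
Hist1h2bc: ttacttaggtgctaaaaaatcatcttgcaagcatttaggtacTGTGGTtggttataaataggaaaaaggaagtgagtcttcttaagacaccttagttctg

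**Figure D3:**
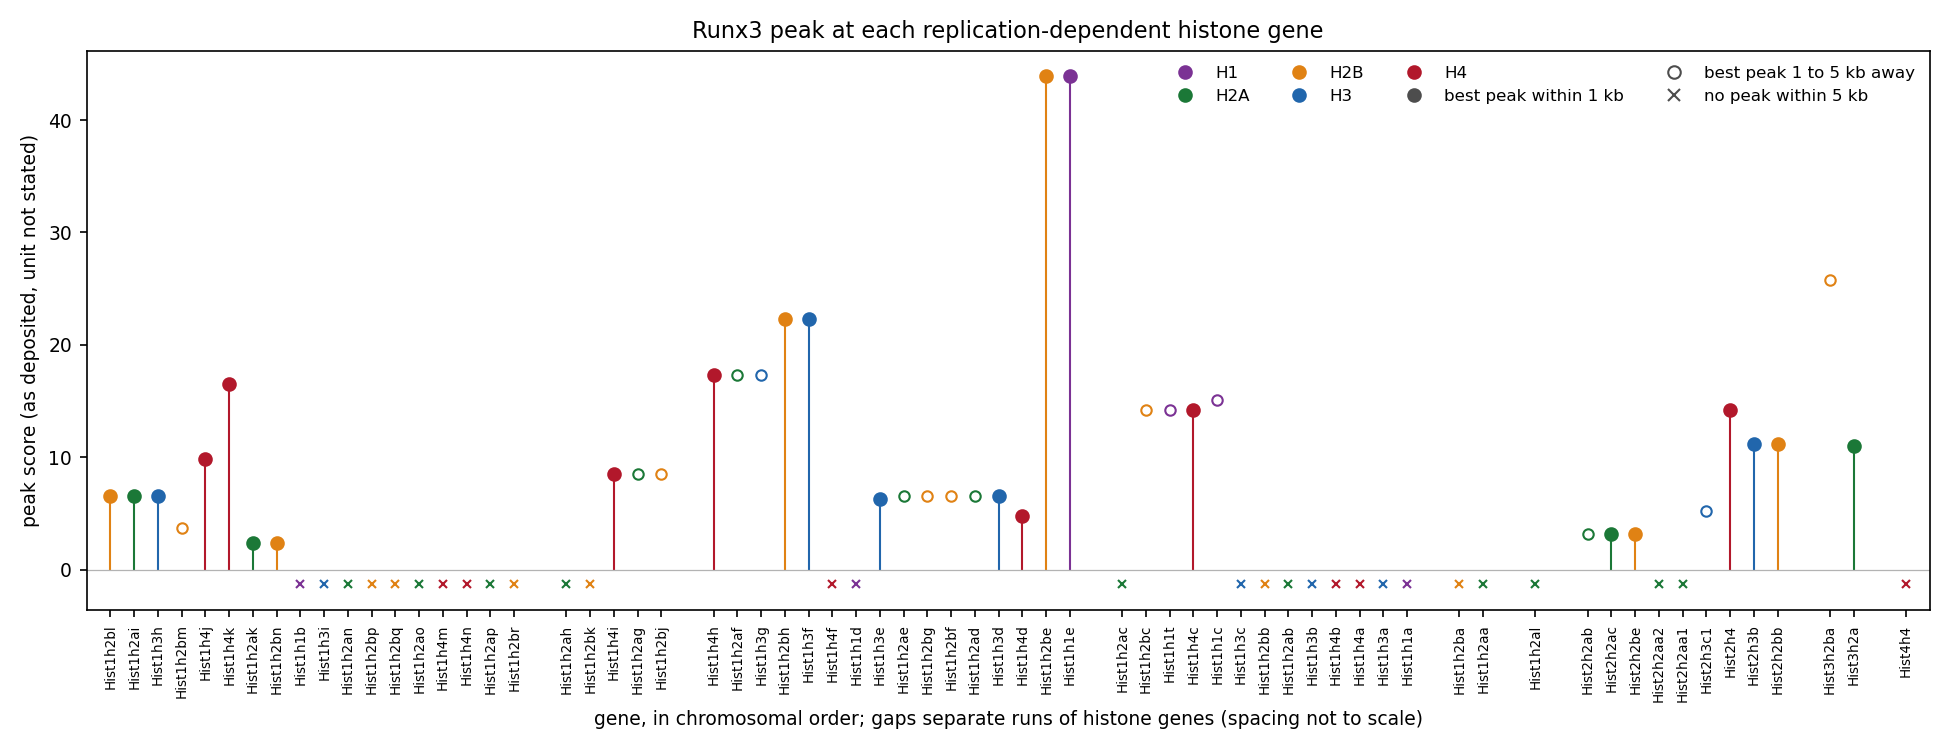
Score of the best peak (vertical axis, as deposited, unit not stated) at each of the 67 genes in chromosomal order (horizontal axis, not to scale), coloured by class. Filled points are the best peak within 1 kb (23 genes), open points the best peak for genes with one only between 1 and 5 kb (15 genes), and crosses the 29 genes with none.

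The genes with a peak were spread unevenly along the clusters. From Hist1h4h to Hist1h1e, a run of 16 genes in 91.5 kb, 14 genes had a peak within 5 kb and 8 within 1 kb. From Hist1h2ac to Hist1h1a, a run of 13 genes in 82.9 kb, 4 had one within 5 kb and 1 within 1 kb. The peaks themselves were as many: with 5 kb added on each side, each run held 8. Of these, 7 and 4, in this order, were within 5 kb of a member TSS. Within 5 kb, 31.1% of all genes and 50.7% of genes with a close neighbour had a peak. Within 1 kb the shares were 24.9% and 41.0%. The last 8 genes of the run that ends at Hist1h1a, from Hist1h3c on (chr13:23836842-23856283), had none within 5 kb. Their nearest peaks were 5747 to 23813 bp away. In Hist2, 7 of 9 genes had a peak within 5 kb and 5 within 1 kb. Both Hist3 genes had one within 5 kb. No peak lay within 5 kb of Hist4h4, an H4 gene that lies alone (nearest peak 23785 bp away), of the isolated Hist1h2al (96006 bp) or of the testis-specific pair Hist1h2ba and Hist1h2aa (134520 and 134826 bp).

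Of 48 other protein-coding genes that lie among the Hist1 genes, most of them vomeronasal receptor genes, 6 (12.5%) had a peak within 5 kb, all within 1 kb. The shares of all protein-coding genes were 31.1% within 5 kb and 24.9% within 1 kb. They were Prss16 (best score 38.1), Hfe (24.9), Abt1 (21.5), Zfp184 (15.7), Zfp322a (14.2) and Gm17658, which shared the peak of Hist1h4d.

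Histone genes resemble each other in sequence, and the reads of 50 bp were aligned only where they fitted one place, so the share of 50-base words found once in the genome (either strand) was computed for each gene. It was 42.5% over the coding bases of the members, and 46 of the 67 were under 50%. Over the 500 bases upstream of the TSS it was 78.7%, against 93.3% for all protein-coding genes, and over the 500 bases downstream 52.5%, against 91.9%. Coding sequence was unique for H1 genes (median per gene 89.9%) more than for H2A (28.5%), H2B (30.1%), H3 (27.5%) and H4 (38.5%) genes. Within the histone gene peaks the mean was 95.8%, against 99.3% for all peaks near a protein-coding TSS. The lowest was 73.4%, at Hist1h4i, whose peak covered its coding bases.

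Peaks were found at members with unique and with shared upstream sequence. All upstream words were unique at 34 members, of which 14 (41.2%) had a peak within 1 kb, and some were not at 33 members, of which 9 (27.3%) did. At 6 members fewer than 10% of upstream words were unique, namely Hist1h2bq, Hist1h2ao, Hist1h4m, Hist1h4n, Hist1h2ap and Hist1h2br, and none had a peak. Without these 6, 38 of 61 members (62.3%) had a peak within 5 kb. They belong to a stretch of 10 genes without a peak, from Hist1h1b to Hist1h2br (chr13:21871752-21929399). In the empty stretch from Hist1h3c to Hist1h1a, by contrast, 7 of 8 genes had fully unique upstream words, and the lowest share was 83.0%. Whether shared sequence took peaks from the count at single genes was not tested.

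**Figure D4:**
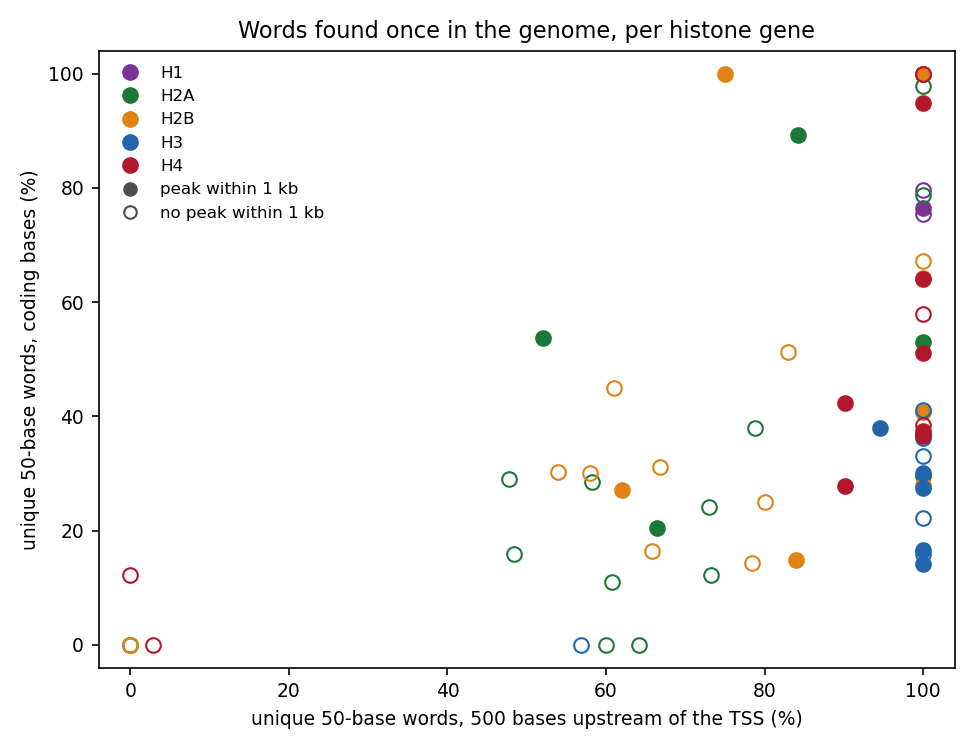
Share of 50-base words found once in the genome over the 500 bases upstream of the TSS (horizontal axis, %) and over the coding bases (vertical axis, %), one point per gene, coloured by class and filled where a peak lay within 1 kb. The 6 genes under 10% on the horizontal axis are open points, and filled points lie between 52.0 and 100%.

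The 6 genes lie in an inverted duplicate. The 167 bp between Hist1h2bq and Hist1h2ao and the 167 bp between Hist1h2ap and Hist1h2br, with 2000 bases on each side, were identical at 4074 of 4167 bases (97.8%) when the copies were read in opposite directions. The central 120 bases of both, at chr13:21902092-21902211 (plus strand) and chr13:21925469-21925588 (minus strand), were the same and are shown with CCAAT, or its reverse complement, in capitals.
Hist1h2bq and Hist1h2ao: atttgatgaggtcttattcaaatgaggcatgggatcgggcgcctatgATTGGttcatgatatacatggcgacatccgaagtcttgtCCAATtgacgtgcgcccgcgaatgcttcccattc
Hist1h2ap and Hist1h2br: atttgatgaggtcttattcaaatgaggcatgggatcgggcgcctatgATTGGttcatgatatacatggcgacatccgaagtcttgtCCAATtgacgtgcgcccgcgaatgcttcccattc

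The promoters of the members were set beside those of all genes, over the 250 bases upstream of the TSS and on both strands. CCAAT occurred in 85.1% of members and 35.0% of all promoters, TATAAA in 49.3% and 12.3%, TTTGCAT in 25.4% and 3.93%, and TGACGT in 26.9% and 7.19%. No motif is contained in another. None of these 4 motifs was more frequent in the 23 members with a peak within 1 kb than in the 44 without: CCAAT stood at 78.3% and 88.6%, TATAAA at 39.1% and 54.5%, TTTGCAT at 21.7% and 27.3%, and TGACGT at 26.1% and 27.3%. GGTCCG, at 34.8% and 11.4%, had the higher share in members with a peak, a count that rests on the 7 H4 genes and Hist1h2bh. TGTGGT stood at 8.70% (2 of 23) and 6.82% (3 of 44), counts too small to order. Both were below the 12.8% of all promoters. GC content had a median of 44.4% in members, against 54.0% in all promoters, and the ratio of observed to expected CpG was 0.718, against 0.496. For 9 members the annotated start is the start codon itself, so their upstream window begins inside the transcribed region.

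Peaks were also counted at genes that serve the histone genes or replace their products. Of 23 genes for histone gene transcription and histone mRNA processing, 14 (60.9%) had a peak within 5 kb and 13 within 1 kb, beside the 31.1% and 24.9% of all genes. Casp8ap2 (FLASH, a histone pre-mRNA processing factor) had the highest score (73.9), 239 bp upstream of its start, followed by Slbp, the stem-loop binding protein (48.3), the stem-loop exonuclease Eri1 (36.1), Yy1 (27.9) and the cleavage enzyme Cpsf3 (24.9). Npat, the coactivator of histone genes, scored 22.5 with a peak 223 bp upstream, and Hinfp scored 18.9 with one 87 bp upstream. Lsm10 (7.20) and Lsm11 (8.74), subunits of the U7 particle, had weaker peaks near their starts. Among the S-phase regulators, Cdk2 had a peak of score 6.57 centred 107 bp upstream of its start, and E2f1, Ccne1 and Ccne2 had none.

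Of 20 histone chaperone and nucleosome assembly genes, 13 (65.0%) had a peak within 5 kb and 12 within 1 kb, beside 31.1% and 24.9% of all genes. The highest scores were at Hat1, which acetylates new H4 (69.6), the FACT subunit Supt16h (58.1), Ubn1 of the HIRA complex (57.0), Daxx (38.1), Chaf1a of chromatin assembly factor CAF-1 (32.3) and Hira (31.4). Variant and replacement histone genes had peaks at 8 of 10 (80.0%) within 5 kb and at 7 within 1 kb, beside the same shares of all genes. They were led by H3f3b (62.5) and H2afy (47.4), with Cenpa (27.8) and H2afv (23.2) also in the upper quartile. A peak of the upper quartile lay within 5 kb of 4 of 10 variant histone, 5 of 23 transcription and processing, and 7 of 20 chaperone genes. The same held for 4 of the 67 replication-dependent histone genes (5.97%) and for 9.24% of all protein-coding genes. The median best score within 5 kb was 21.1, 17.0 and 24.2 for the 3 lists. These values take the best peak of each gene with a peak, so they cannot be set against the medians over single peaks given above.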

How the data were processed

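Runx3 ChIP-seq and whole cell extract reads of 50 bp were aligned by the authors to mm9 with Bowtie, keeping uniquely aligned reads, after CASAVA 1.8, and MACS2 called the peaks on the pooled samples. Versions of Bowtie and MACS2 are not given in the sources used here. The deposited list gives a start, an end and a score for each peak, with no unit for the score. Peaks were placed by their centre and set against every TSS of each protein-coding gene of GENCODE M1. Sequence came from NCBIM37, the same assembly, with coordinates counted from 1. Unique words were counted over the whole genome on both strands. No p-value was computed, because there is 1 pooled list. Distance search and word counter were checked on simulated data. Python 3.11.15, numpy 2.4.6, pandas 2.3.3, scipy 1.17.1 and numba 0.67.0 were used. The members, gene lists and motifs were chosen with earlier results of these data known. Named genes were those with a peak within 1 kb, those nearest the limits, the Hist2, Hist3 and Hist4 genes, the testis histones, and up to 6 listed genes with an upper quartile peak, and other names were chosen after their values were seen. One of 11 variant histone symbols (H1f0) could not be matched and was left out, and 1 check locus is not reported here. Alternatives were other scores, distances and word lengths.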

Additional observations from a re-analysis of the deposited data

How the results depend on the processing

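The count of histone genes with a peak within 5 kb was 38 and stayed within 1.5 times of it with a limit of 2 kb (29) or 10 kb (46), with any base of the peak counted (39), with peaks closer than 300 bp joined (38), with the 5′ end of the gene only (37), without the testis histones (37 of 64), and, in a setting chosen after seeing the data, without the genes whose upstream words were mostly shared (38 of 61). It moved to 23 at 1 kb, to 18 with the nearest protein-coding TSS only, to 17 with peaks of at least the median score and to 4 with peaks of the upper quartile. The 23 peaks became 9 and 2 under the last pair of settings. A stable count does not by itself compare members with other genes. With the nearest protein-coding TSS only, the shares of members and of all protein-coding genes were near each other (26.9% and 26.7%). With peaks of the upper quartile the share of members was the lower (5.97% and 9.24%). Under the other settings listed, the share of members was the higher. Genes with a close neighbour were counted only at 1 and 5 kb. The share of unique coding words fell from 42.5% to 36.8% with words of 36 bases, a shift that follows from the shorter word. No paired analysis was possible because the replicates were pooled into 1 list with no value per replicate, and for the same reason no replicate could be left out. Sample depth and reads per peak were not analysed here, so what depth limits was not tested.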
